A study of Mus musculus with 12 samples.

Results

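The genes described here are 10 genes of the blastocyst epithelium: the keratins Krt8, Krt18, Krt7 and Krt19, the claudins Cldn4 and Cldn6, the cell adhesion genes Cdh1 and Dsp, and the fluid transport genes Atp1b1 and Aqp3. They were chosen by symbol, and all 10 were found among 45706 genes listed for blastocysts and 13009 listed for embryonic stem (ES) cells. RNA was sequenced from mouse blastocysts and ES cells that were wild type (Dis3L WT) or knockout (Dis3L KO) for Dis3l, which encodes a nuclease of the cytoplasmic RNA exosome. The labels list 12 samples in 4 groups of 3. Blastocysts were dissected 96 h after hCG injection of superovulated females, and each library was made from a single embryo by Tn5 tagmentation of cDNA. ES cells were derived from blastocysts and grown with LIF on inactivated mouse embryonic fibroblasts, and stranded, ribosomal RNA-depleted libraries were made from their RNA. The labels name neither the strain nor the kind of knockout allele, and do not say whether the ES cell samples are separate lines, so p-values there measure the spread between samples, which may be technical.

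The trophectoderm is the outer epithelium of the blastocyst. Its cells hold networks of keratin filaments built from pairs of a type II chain (Krt8, Krt7) and a type I chain (Krt18, Krt19). Adherens junctions (Cdh1, E-cadherin), desmosomes (Dsp, desmoplakin, which ties keratin filaments to the desmosome) and tight junctions (claudins) join the cells and seal the layer. The sodium-potassium pump, of which Atp1b1 is a beta subunit, moves sodium into the cavity, and water follows, in part through aquaporins such as Aqp3, so that the cavity fills. ES cells come from the inner cell mass and have no such epithelium, but they do adhere through Cdh1.

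Values come from the authors' deposited table for each material, which gives each gene a mean of normalised read counts over libraries, a log2 fold change with its standard error, and a p-value. Neither table states which genotype a positive fold change favours. The directions below are therefore called the positive and the negative side of the comparison, and neither side was assigned to a genotype. Reads per count column were recovered from the deposited means, giving 3 columns per side in blastocysts and 2 per side in ES cells, although the labels list 3 ES cell samples per group. The columns of a side are numbered by decreasing depth, and size factors ran from 0.695 to 1.62 in blastocysts and from 0.759 to 1.25 in ES cells. The deposited means summed to 4608914 normalised counts per library in blastocysts and 1513923 in ES cells. Dis3l itself had 26, 8 and 0 reads on the positive side of the blastocyst comparison, against 10, 4 and 8 on its negative side, so its reads did not separate the sides there. In ES cells it had 14 and 8 reads on the positive side against 39 and 39 on the negative side. Normalised, these were 11.2 and 10.5 against 37.1 and 37.7, so the sides did not overlap. The authors' Wald test gave Dis3l an unadjusted p-value of 0.00778 and an adjusted p-value of 0.445 there.

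Krt8 and Krt18 lie on chromosome 15 with 23873 bases between them, and Krt7 lies on the same chromosome. Their sequences are shown because these 3 keratins had the lowest p-values among the 10 genes in blastocysts, with Krt7 on the opposite side to the other two. The stretches are the 250 bases before each start, from RefSeq (GRCm38.p6), at chr15:102004343-102004592 on the minus strand for Krt8, chr15:102027966-102028215 on the plus strand for Krt18 and chr15:101412153-101412402 on the plus strand for Krt7. The Krt7 stretch precedes the RefSeq start but lies inside the gene as listed with the counts, which begins at chr15:101411043. Capitals mark matches, on either strand, to the motif letters given after them.
Krt8: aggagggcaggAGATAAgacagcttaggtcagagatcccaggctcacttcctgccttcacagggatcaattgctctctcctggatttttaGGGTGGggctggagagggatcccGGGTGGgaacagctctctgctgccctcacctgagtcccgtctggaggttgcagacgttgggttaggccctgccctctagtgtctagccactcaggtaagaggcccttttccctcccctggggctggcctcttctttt
Krt18: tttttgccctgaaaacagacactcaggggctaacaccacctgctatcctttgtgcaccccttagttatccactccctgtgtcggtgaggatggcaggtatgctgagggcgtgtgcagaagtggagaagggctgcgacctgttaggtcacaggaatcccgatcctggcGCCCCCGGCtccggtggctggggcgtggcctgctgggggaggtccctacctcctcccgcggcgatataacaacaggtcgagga
Krt7: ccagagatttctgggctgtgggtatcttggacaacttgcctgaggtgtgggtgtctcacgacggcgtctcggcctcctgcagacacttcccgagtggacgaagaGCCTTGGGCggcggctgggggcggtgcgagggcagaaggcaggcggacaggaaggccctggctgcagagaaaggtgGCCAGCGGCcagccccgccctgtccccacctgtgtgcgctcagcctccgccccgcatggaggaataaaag

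Of the 10 genes, 8 had an entry in the RefSeq promoter table. Each motif was searched on both strands. The AP-2 letters, GCCNNNGGC, were found in the stretches of Krt18, Krt7 and Dsp and in 13.7% of 32851 RefSeq stretches of the same length. The letters of the KLF motif, CCACCC, were found for Krt8 and Aqp3 (28.1% of all). The letters of the GATA motif, searched as AGATAA, were found for Krt8 (9.99%). The AP-1 letters, searched as TGANTCA, were found for Cldn4 (6.75%), and those of the TATA box, searched as TATAAA, for Aqp3 (12.4%). The TEAD letters, GGAATG, present in 12.6% of all stretches, were in 0 of the 8. In the printed stretches Krt8 therefore holds 1 GATA and 2 KLF matches, Krt18 holds 1 AP-2 match and Krt7 holds 2 AP-2 matches. A match describes the letters only.

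The epithelial genes stood high among the transcripts of the blastocyst. Mean reads per kilobase of the longest coding transcript ranked all 10 above the median of 12826 protein-coding genes found in both tables, with a median percentile of 95.9. Krt18 stood at percentile 99.9, Krt8 at 99.8 and Cldn4 at 99.7. Cdh1 (97.1), Aqp3 (96.8), Atp1b1 (95.1), Dsp (86.3), Cldn6 (83.6), Krt7 (83.2) and Krt19 (57.3) followed. The blastocyst data thus did not go against the label, and Krt19 was the lowest of the 10.

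**Figure D1:**
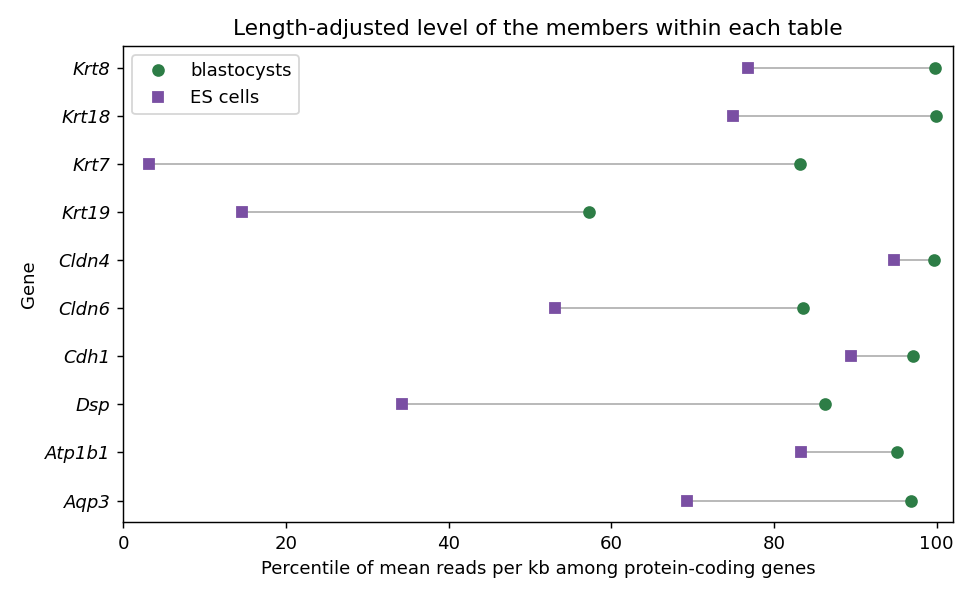
Percentile of mean reads per kilobase among 12826 protein-coding genes, for each of the 10 genes (rows) in blastocysts (circles) and ES cells (squares). Each circle lies to the right of its square, with the widest gap for Krt7, at percentiles 83.2 and 3.19. The ES cell value of Krt7 rests on a mean of 3.61 normalised reads.

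In ES cells 7 of the 10 were above the median, and the median percentile was 72.1. Cldn4 led there at percentile 94.7, ahead of Cdh1 (89.4), Atp1b1 (83.3), Krt8 (76.8), Krt18 (74.9), Aqp3 (69.3) and Cldn6 (53.1). Dsp (34.3), Krt19 (14.6) and Krt7 (3.19) were below it. The libraries differ in kind between the materials, so percentiles were compared and levels were not tested.

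Krt8 and Krt18 held most of the level of the 4 keratins. Per kilobase, they made up 98.5% of the sum of the 4 in blastocysts and 95.7% in ES cells. These shares depend on the lengths used, 4.094 kb for Krt7 against 1.958, 1.437 and 1.576 kb for Krt8, Krt18 and Krt19. The ratio of Krt18 to Krt8 per kilobase was 1.90 in blastocysts and 0.917 in ES cells. Of 8 other keratins (Krt5, Krt14, Krt15, Krt17, Krt20, Krt23, Krt42, Krt80), 8 had 0 reads in all blastocyst columns. That allows up to 3 reads over the columns, or 3 read pairs if mates of a pair were counted separately. Of the 8 keratins, the ES cell table listed Krt17 and Krt42, at means of 32.1 and 28.8, or 20.7 and 18.7 reads per kilobase, beside 39.8 for Krt8 and 36.5 for Krt18. With the 8 counted in, Krt8 and Krt18 held 98.5% of the summed level of the 12 keratins in blastocysts and 64.01% in ES cells.

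The comparison of the sides in blastocysts asks whether these genes differ between genotypes at this stage. The authors' Wald test with Benjamini-Hochberg adjustment called 0 of the 10 at a threshold of 0.05, against 0.0986% of 15209 tested genes. Before adjustment, 3 of the 10 (Krt8, Krt18 and Krt7) had a p-value under 0.05, against 6.21% of all genes tested. The 10 split into 5 positive and 5 negative log2 fold changes with a median of −0.05, beside −0.04 for all genes. The adjusted p-values of the 10 ran from 0.641 to 0.997.

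The main keratin pair lay lower on the positive side. Krt8, the type II chain, averaged 3888 normalised reads on the positive side, against 7123 on the negative side, side means that follow from the deposited mean and fold change. Its log2 fold change was −0.87 (SE 0.36, unadjusted p = 0.0146, adjusted p = 0.641 by the authors' Wald test). Krt18, its type I partner, averaged 6015 on the positive side, against 9341 on the negative side, with a log2 fold change of −0.63 (SE 0.29, unadjusted p = 0.0289, adjusted p = 0.744). Reads per column could not be recovered for this pair, so its spread between libraries was not seen. The standard errors imply a fitted coefficient of variation of about 30.3% for Krt8 and 24.6% for Krt18. Such values can differ from the spread over recovered columns, as in Krt7 (51.8% implied, 82.7% observed) and Cdh1 (22.5% implied, 16.6% observed). The pair thus shared its direction, and neither member passed the adjusted threshold.

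Krt7, a type II keratin of simple epithelia, had the opposite sign. Its normalised reads were 177, 560 and 946 on the positive side, against 64.3, 408 and 199 on the other. The sides overlapped: the lowest positive-side column lay below 2 of the 3 negative-side columns. The log2 fold change was 1.33 (SE 0.61, unadjusted p = 0.0306, adjusted p = 0.748). Leaving out 1 column at a time, the log2 ratio of recovered reads ran from 0.72 to 2.09, and it fell to 0.72 without positive-side column 3. Krt19, a type I keratin, was the most uneven of the 10, at 0, 6.09 and 153 normalised reads on the positive side, against 13.6, 78.0 and 31.7 on the negative side. The 0 in positive-side column 1 allows up to 3 reads, or 3 read pairs if mates of a pair were counted separately. Positive-side column 3 held nearly all Krt19 reads of its side: the log2 ratio was 0.36 with all columns and −3.55 without it, and the deposited standard error was 1.38.

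**Figure D2:**
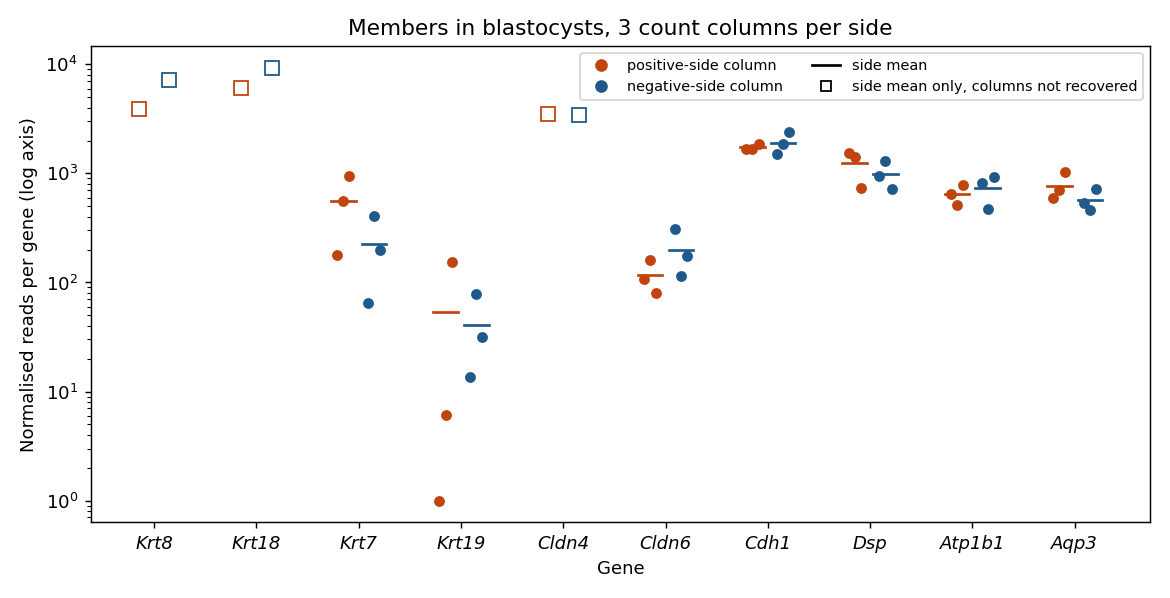
Normalised reads (log axis) of the 10 genes in blastocysts, with 1 point per recovered count column, orange for the positive and blue for the negative side, lines for side means and open squares for side means where columns were not recovered. The column of Krt19 with 0 reads is drawn at 1. Krt7 spans 64.3 to 946, while the columns of Cdh1 lie between 1502 and 2382.

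The 2 claudins stood at different levels in blastocysts, with means of 1909 reads per kilobase for Cldn4 and 97.7 for Cldn6. Cldn4, a tight junction claudin, averaged 3523 normalised reads on the positive side, against 3411 on the negative side, with a log2 fold change of 0.05 (SE 0.25) and a 95% interval from −0.44 to 0.53. Cldn6, a claudin of early embryonic epithelia, had 109, 162 and 79.99 normalised reads on the positive side, against 311, 114 and 176 on the negative side. The sides overlapped, and the log2 fold change of Cldn6 was −0.78 (SE 0.54, adjusted p = 0.811). Without negative-side column 1, the highest, its log2 ratio of reads was −0.31.

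Of the adhesion genes, Cdh1 varied less between columns than Dsp. Cdh1 had 1680, 1683 and 1860 normalised reads on the positive side, against 1502, 1875 and 2382 on the negative side. The negative-side columns enclosed all 3 positive-side columns, and the log2 fold change was −0.14 (SE 0.27, adjusted p = 0.967), with a 95% interval from −0.66 to 0.38. Across the 6 columns its coefficient of variation was 16.6%, the lowest of the 7 genes with recovered columns, which reached 32.5% in Dsp and 125% in Krt19. Dsp had 1549, 1425 and 731 normalised reads on the positive side, against 954, 1309 and 714 on the negative side. The sides overlapped, and its log2 fold change was 0.32 (SE 0.35, adjusted p = 0.879).

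The fluid transport genes also overlapped between sides. Atp1b1 had 645, 510 and 785 normalised reads on the positive side, against 813, 476 and 925 on the negative side, with a log2 fold change of −0.19 (SE 0.35, adjusted p = 0.963). Aqp3, which conducts water and glycerol, had 595, 702 and 1026 on the positive side, against 538, 464 and 725 on the negative side. Its log2 fold change was 0.43 (SE 0.34, adjusted p = 0.811), and positive-side column 3 was its highest column, without which the log2 ratio of reads was 0.17. Over all 7 genes with recovered columns, the columns of the sides separated in 0, against 12.5% of 9269 genes with a mean of at least 20.

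**Figure D3:**
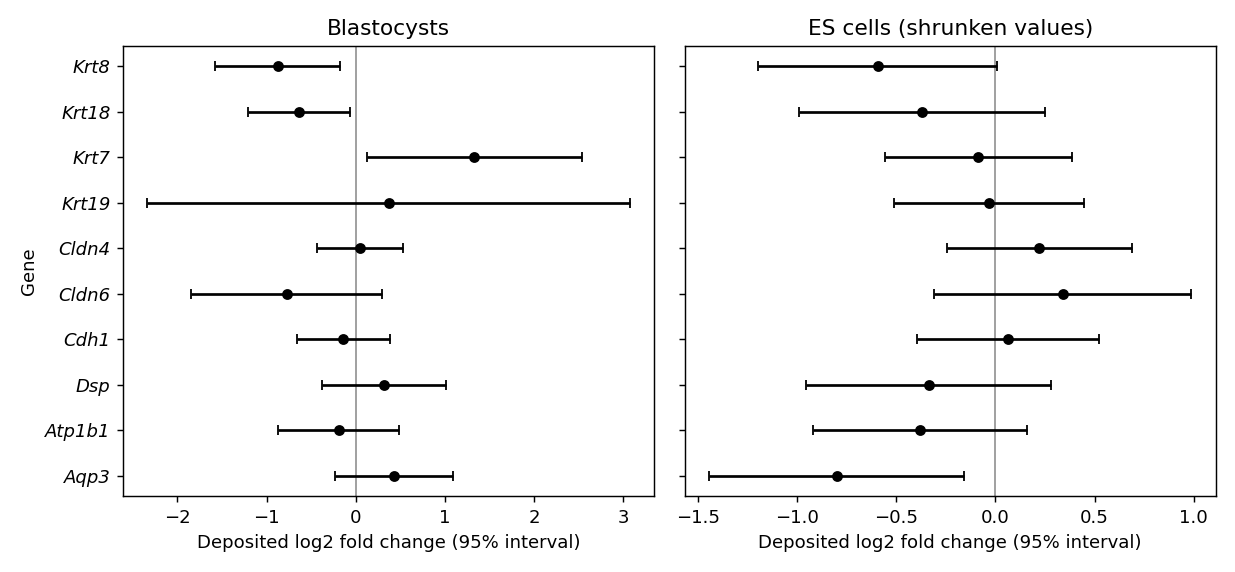
Deposited log2 fold change of each gene (points) with its 95% interval (bars) in blastocysts (left) and ES cells (right), on separate axes because the ES cell values are shrunken towards 0. The intervals of Krt8, Krt18 and Krt7 in blastocysts and of Aqp3 in ES cells leave out 0 before adjustment.

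The partners of these proteins were read from 7 lists of 56 genes. In blastocysts 44 were tested, and 0 passed the adjusted threshold. Before adjustment, 2 positive genes and 1 negative gene had a p-value under 0.05, against 2.68% and 3.53% of all genes tested. Of the 44, 29 had a positive and 15 a negative fold change, with a median of 0.17.

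The listed tight junction and polarity genes lay mostly on the positive side. Of 16, 15 had a positive log2 fold change, with a median of 0.40, where 48.3% of all genes tested were positive with a median of −0.04. Their summed level was 9299, 10310 and 10630 normalised reads on the positive side, against 7868, 9013 and 7786 on the negative side. Every positive-side column was thus above every negative-side column in this sum. The list was chosen with earlier results of these data known, and how often such sums separate was not tested. The claudins Cldn4 and Cldn6, at log2 fold changes of 0.05 and −0.78, are not among the 16. None of the 16 passed the adjusted threshold, and 1 passed unadjusted: Marveld2 (tricellulin, a protein of the corners where 3 cells meet), at 133, 130 and 265 against 65.6, 69.1 and 66.2 normalised reads. Its sides did not overlap, and its log2 fold change was 1.39 (SE 0.54, unadjusted p = 0.0103, adjusted p = 0.574 by the Wald test). Without positive-side column 3, 12 of the 16 were positive by recovered reads.

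**Figure D4:**
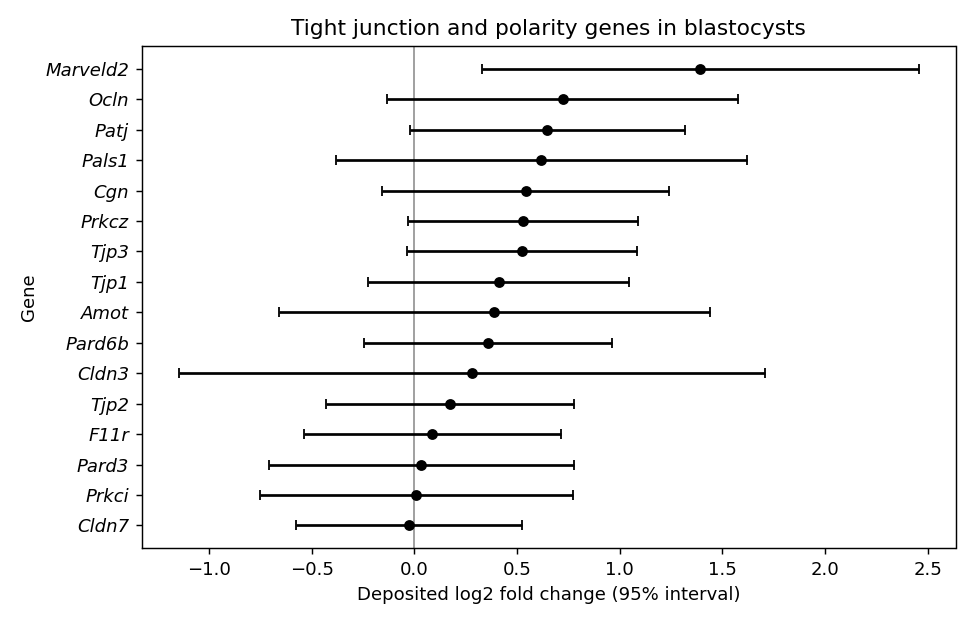
Deposited log2 fold changes (points) and 95% intervals (bars) of 16 tight junction and polarity genes in blastocysts. Points lie right of 0 for 15 of the genes, and the interval leaves out 0, before adjustment, for Marveld2 alone.

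Among the other partners, Rdx (radixin, which links the membrane to cortical actin) had 657, 629 and 821 normalised reads on the positive side, against 355, 319 and 443 on the negative side. Its sides did not overlap, with a log2 fold change of 0.92 (SE 0.32, unadjusted p = 0.00388, adjusted p = 0.414). Epcam, an epithelial adhesion molecule, was the gene on the negative side, with a log2 fold change of −0.83 (SE 0.31, unadjusted p = 0.00735, adjusted p = 0.537). The adherens junction list had 5 positive and 2 negative genes (median 0.10), and the desmosome list 3 and 5 (median −0.21). The pump and ion exchange list had 3 positive and 3 negative genes (median 0.05).

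Reads were recovered for 6 of the epithelial genes whose mean was 50 or more, and the listed gene whose column profile was most like their mean profile was Dsg2, a desmosomal cadherin. Its root mean square difference, in log2 units over 6 columns, was 0.173, followed by Cldn7 (0.205) and Ctnnd1 (0.228, p120 catenin, which binds Cdh1), among 36 listed genes compared. Of the 6 themselves, Cdh1 was nearest to the mean profile (0.212) and Krt7 farthest (1.12). Each of the 6 is part of that mean, so their distances are not comparable with those of the listed genes. The mean profile ran only from −0.24 to 0.21, so a gene that varied little between columns also lies near it. Genes outside the lists were not compared.

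Markers of the cell types of the embryo are given beside these values. In a bulk embryo, fewer cells of a type and less RNA per cell cannot be told apart. Of 11 trophectoderm transcription factors, 7 were positive (median 0.41), 2 of them at an unadjusted p-value under 0.05 (Gata3 and Klf5). The summed level of the 9 with recovered reads ran from 6654 to 8581 on the positive and from 6440 to 7150 on the negative side. That sum leaves out Gata3 and Klf5, the 2 highest of the list. Their side means were 2442 and 3216 on the positive side, against 1702 and 2142 on the negative side. Of 12 inner cell mass genes, 8 were negative (median −0.20), 3 of them at an unadjusted p-value under 0.05 (Nanog, Pou5f1 and Tdgf1). The sum of the 11 with recovered reads, all but Dppa5a, ran from 2524 to 4113 on the positive and from 3996 to 4301 on the negative side. No gene of either list passed the adjusted threshold. Over all genes tested 48.3% were positive, and 2.68% were positive and 3.53% negative at an unadjusted p-value under 0.05. Of the 12 primitive endoderm genes, 11 were tested, with a median of −0.05. The sum of the 8 with recovered reads ran from 1456 to 2297 on the positive and from 1938 to 2573 on the negative side. That sum leaves out the highest genes of the list, Lama1, Dab2, Col4a1 and Cubn, at means of 3760, 3406, 1341 and 979.5. It thus covers only the lower genes of the list. One of the 11 tested, Sox7, had an unadjusted p-value under 0.05 by the Wald test, in the positive direction (log2 fold change 3.27, SE 1.07, adjusted p = 0.349). It had 198.5, 108 and 171 normalised reads on the positive side, against 0, 46.8 and 2.88 on the negative side. Of 13 fibroblast genes, 9 were at 0 in blastocysts, and the sum of the other 4 ran from 690 to 926 on the positive and from 736 to 1452 on the negative side, with Fn1 the highest of the 4 in every column. The part of these cell types in the values of the epithelial genes was not tested.

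In ES cells the comparison asks whether the genes differ where no epithelium forms. Again 0 of the 10 were called by the authors' Wald test at an adjusted p-value of 0.05, against 0.261% of 10739 tested genes, and 8 of the 10 had an adjusted p-value at all. Before adjustment 1 of them (Aqp3) had a p-value under 0.05, against 5.62% of all. Of the 10 log2 fold changes, 3 were positive and 7 negative, with a median of −0.21 beside 0.00 for all genes tested. Of the 8 genes with a mean of at least 20, the recovered columns of the sides did not overlap for 6, where they did not overlap for 41.3% of 8073 genes with such a mean. The negative side was the higher in 4 of these (Krt8, Krt18, Atp1b1 and Aqp3; 21.1% of all genes) and the positive side in 2 (Cldn4 and Cldn6; 20.2%). Deposited fold changes of this table are shrunken towards 0, so their sizes are not compared with those of blastocysts.

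In ES cells Krt8 and Krt18 lay lower on the positive side, which need not be the genotype of the positive side in blastocysts. Krt8 had 56.7 and 54.0 normalised reads on the positive side, against 133 and 67.6 on the negative side, and its log2 fold change was −0.59 (SE 0.31, unadjusted p = 0.0526, adjusted p = 0.905). Krt18 had 44.7 and 39.5 against 78.9 and 46.4, with a log2 fold change of −0.37 (SE 0.32, unadjusted p = 0.241). Both pairs of columns stood apart, and the gap rested largely on negative-side column 1, without which the log2 ratio of reads was −0.29 for Krt8 and −0.14 for Krt18, against −0.85 and −0.57 with all columns. Krt7 had 4 and 2 reads on the positive side, against 5 and 4 on the negative side, and Krt19 had 3 and 4 against 7 and 2. A difference in Krt7 or Krt19 was not detectable at this depth.

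Aqp3 showed the largest fold change of the 10 in ES cells. Its normalised reads were 23.2 and 34.2 on the positive side, against 36.1 and 115 on the negative side, with a log2 fold change of −0.80 (SE 0.33, unadjusted p = 0.0150, adjusted p = 0.588). Negative-side column 2 stood far above the other 3, and without it the log2 ratio of reads was −0.33, against −1.38 with all columns. The same column was highest for Dsp, at 48.7 and 77.7 on the positive side, against 53.2 and 126 on the negative side. Without that column the log2 ratio of Dsp turned from −0.50 to 0.25. That column also held a summed level of 1719 normalised reads of 11 fibroblast genes, where the other 3 columns held 346 to 402. Of that sum, 865 normalised reads were of Col3a1, a fibroblast collagen, which had 44.7 to 73.7 elsewhere. The list was not uniform: Thy1 was lowest in that column, at 14.5, and Loxl1 was not highest there. Col6a1 was nearly level, at 74.4 against 74.25 in positive-side column 1, and the remaining genes of the sum were highest in that column. Fn1 and Fbln2 had no recovered reads and are not in the sum. The part of the feeder cells in the values of Aqp3 and Dsp was not tested.

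**Figure D5:**
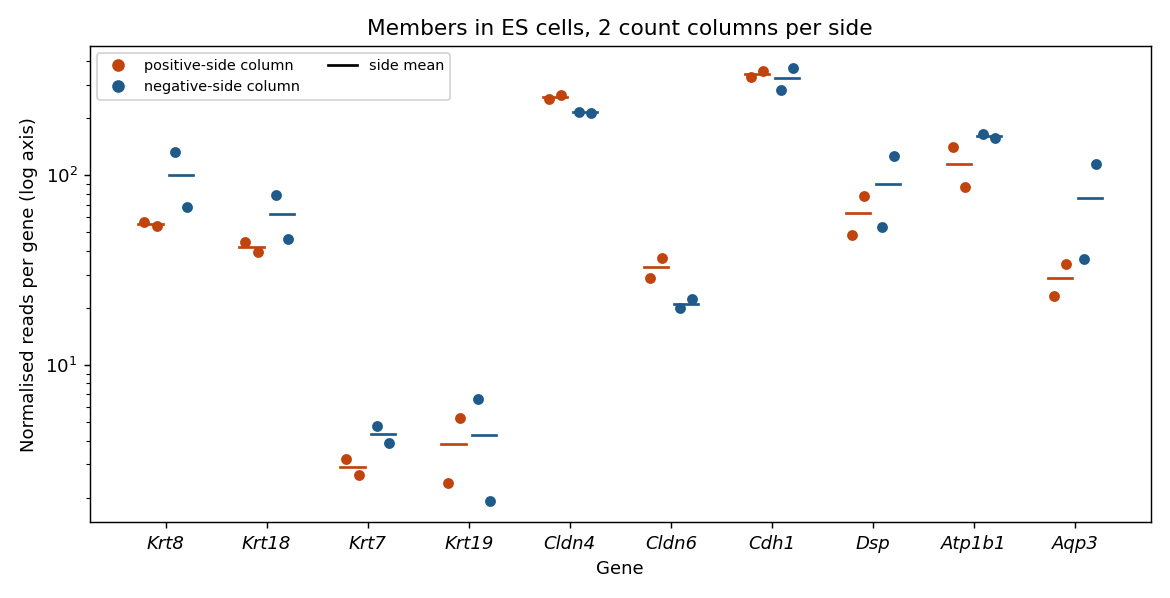
Normalised reads (log axis) of the 10 genes in ES cells, with 1 point per recovered count column, orange for the positive and blue for the negative side, and lines for side means. The highest point of Aqp3, at 115, and that of Dsp, at 126, belong to the same negative-side column.

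The claudins lay on the other side from the keratins in ES cells. Cldn4 had 251 and 263 normalised reads on the positive side, against 215 and 214 on the negative side, and its log2 fold change was 0.22 (SE 0.24, unadjusted p = 0.349). Cldn6 had 28.7 and 36.9 against 20.0 and 22.2, with a log2 fold change of 0.34 (SE 0.33, unadjusted p = 0.305). Both had columns that stood apart, with ratios that kept their sign when any 1 column was left out. Cdh1 had 328 and 356 normalised reads on the positive side, against 280.5 and 369 on the negative side, which overlapped, and its log2 fold change was 0.06 (SE 0.23). Atp1b1 had 141 and 86.9 against 165 and 158, with a log2 fold change of −0.38 (SE 0.28, unadjusted p = 0.169). Its gap was widest through positive-side column 2, without which the log2 ratio of reads was −0.19.

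Of the partner genes, 41 of 56 were listed in ES cells and 39 tested, and 0 passed the adjusted threshold. Before adjustment, 1 positive and 5 negative genes had a p-value under 0.05, against 2.21% and 3.42% of all genes tested. The lowest p-value belonged to Pard3, the polarity scaffold, with a log2 fold change of −0.89 (SE 0.24, unadjusted p = 0.000172, adjusted p = 0.0578). Krt17, an epidermal keratin, had 14.4 and 17.1 normalised reads on the positive side, against 34.2 and 62.8 on the negative side (log2 fold change −0.88, SE 0.33, adjusted p = 0.445). Ezr (ezrin, a linker of membrane to actin) was the positive gene, at 391 and 416 against 254 and 245 normalised reads (log2 fold change 0.60, SE 0.23, adjusted p = 0.445). Nherf1, which binds ezrin, had the opposite sign at −0.69 (SE 0.28, adjusted p = 0.550), and Dsg2 stood at −0.51 (SE 0.22, adjusted p = 0.708). Of the tight junction and polarity genes, 9 of 14 tested were positive in ES cells, with a median of 0.12, and a difference from blastocysts was not tested.

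Some of these genes share exon bases with a gene on the other strand in GENCODE M21: Atp1b1 shares 575 bases with Nme7, Dsp 499 with Gm10129, Krt8 101 with Gm36026 and Krt7 77 with Gm671. The other 6 share none. Only the ES cell libraries are described as stranded, and whether reads were counted by strand is not given in the sources used here. Nme7, the partner of Atp1b1, had means of 66.8 in blastocysts and 75.7 in ES cells. Krt8 also has a processed pseudogene, Krt8-ps, in that annotation, so reads of Krt8 are uncertain to the extent that counting could split them.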

How the data were processed

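Samples were grouped by the genotype and material in the labels. Per the submitters' processing notes, the tools include STAR 2.4.0b, Subread 2.0.1 with featureCounts, bedtools, SAMtools and DESeq2 1.34.0, on GRCm38, with no order given. Per the file headers, the signal column is the authors' mean of normalised counts. The authors' fold changes and standard errors are on the log2 scale, the score is the authors' Wald statistic, and the p-value columns are the authors' p and adjusted p, per the file headers. The tables hold no values per sample, so 0 such columns were used or left aside, and the authors' Wald test at an adjusted p-value of 0.05 took the place of the count test planned.

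In a mean of normalised counts, every read of a count column adds the same step. The steps were found from recurring low means. Blastocyst reads were solved from the mean and accepted where the deposited fold change and standard error were given back with under 0.01 chance matches, for 11873 of 12363 genes (96.0%) with means of 5 to 2000. In 80 of 80 genes compared, the mean alone gave the same reads. In simulated blastocyst data 198 of 200 genes were solved, and all 198 exactly. ES cell reads followed from the mean alone for 12137 of 12137 genes with means up to 350. Of the recovered counts, 95.95% were even in blastocysts and 50.2% in ES cells; whether mates of a pair were counted separately is not given in the sources used here. Columns were placed on a side by the sign of the fold changes they go with. Side means of Krt8, Krt18 and Cldn4 follow from mean and fold change, with a median error of 0.0211% in 500 genes with known reads. Log2 ratios of reads have a pseudocount of 0.5. Depth gives counting error only, because PCR copies of a molecule were not told apart.

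Lengths are of the longest protein-coding transcript in GENCODE M21, and older symbols were matched through RefSeq. The 10 genes, the partner lists and the markers were chosen with earlier results of these data known. Named are all 10, Dis3l, partner genes with an adjusted p-value under 0.05 or among the 5 lowest unadjusted p-values under 0.05 per material, and the 3 with the most similar blastocyst profile; markers and Col3a1 were named after their values were seen. The alternatives were other thresholds, filters, adjustments and centring, recovered reads, and leaving out columns. Calculations used Python 3.11.15 with numpy 2.4.6, pandas 2.3.3 and numba 0.67.0.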

Additional observations from a re-analysis of the deposited data

How the results depend on the processing

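The count of 0 epithelial genes past the adjusted threshold held in both materials with a threshold of 0.01, with adjustment over every gene with a p-value, with means of at least 50 or 10, and with autosomal genes only. At an unadjusted p-value under 0.05 it was 3 in blastocysts and 1 in ES cells. Partner genes past the threshold went from 0 to 1 in ES cells (Pard3, the lowest p-value) when only genes with a mean of at least 50 were adjusted, and stayed at 0 in blastocysts. The blastocyst median of −0.05 became 0.32 over the 7 genes with recovered reads, both by their read ratios (0.3161) and by their deposited values (0.3164), since Krt8, Krt18 and Cldn4 are not among them; with the deposited values of those 3 added back it was −0.05. Leaving out 1 column at a time, the median of the 7 ran from −0.19 (without positive-side column 3) to 0.29, and the count of positive tight junction genes from 12 to 14 of 16. In ES cells the median of the 10 read ratios was −0.49 with all columns, beside −0.21 by the shrunken deposited values. With 1 column left out it ran from −0.43 to −0.21. The count of positive tight junction genes then ran from 6 to 10 of 13. Both were lowest without positive-side column 2. Single-gene ratios changed sign with 1 column left out for Krt19, Cdh1 and Atp1b1 in blastocysts (highest values 1.21, 0.04 and 0.0044, lowest −3.55, −0.29 and −0.43) and for Krt19, Cdh1 and Dsp in ES cells (highest 0.83, 0.28 and 0.25, lowest −0.73, −0.11 and −0.99). The leave-one-out medians, the tight junction counts and the medians over those 7 deposited values were chosen after seeing the data. No paired analysis was possible because the tables hold no values per sample and the recovered columns carry no replicate number. A second tool, another normalisation and refits without a column were not run on the recovered reads, which leave out genes with high means. With 2 columns per side, the ES cell ratios rest on few reads for Krt7 and Krt19.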
